A study of Homo sapiens with 4 samples.

Results

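The genes described here are the 9 that encode the signalling chains of the T-cell receptor (TCR) and the first kinases and adaptors beneath it, and they were taken by name from the 50868 genes in the files. They are the CD3 chains CD3D, CD3E, CD3G and CD247, the kinases LCK and ZAP70, and the adaptors LAT, LCP2 and GRAP2. RNA sequencing was performed in Jurkat cells, an established human T-cell leukaemia line, labelled as wild type and as T lymphoblasts. The cells were treated for 24 h with DMSO, the solvent control, with 0.5 μM JQ1, a small molecule that blocks the acetyl-lysine pockets of BET bromodomain proteins, with DMSO plus 150 ng/ml phytohemagglutinin (PHA), a plant lectin that cross-links T-cell surface glycoproteins, or with JQ1 plus PHA at the same doses. There was 1 library per condition, 4 in all, of a single cell line, so no difference below has a replicate check, and no p-value is given. The intervals given are 95% intervals and cover counting error only.

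The TCR itself has no enzyme. Its antigen-binding chains are carried to the surface with the CD3 chains and CD247 (the ζ chain), whose tails hold tyrosine motifs that LCK phosphorylates. ZAP70 docks on these motifs and phosphorylates LAT, a membrane adaptor, and LCP2 (SLP-76), which is held at LAT by GRAP2 (GADS). The complex they build turns on calcium, Ras and NF-κB signalling, and Jurkat is the line in which much of this pathway was worked out.

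The total count per library was between 18620954 and 19685401, and the floor used here, 3 counts, corresponded to between 0.152 and 0.161 CPM, the unit that puts the counts of all libraries on an equal footing. The T-cell label was checked against 10 T-cell markers, all 10 of which were above the floor in every library, with a summed level between 689 and 1101 FPKM (fragments scaled by gene length and by library size). The floor is a low bar, as between 20939 and 22118 genes had at least 1 count in a library. In DMSO the sum of 741 FPKM held TRBC1 at 330 and TRBC2 at 257, whereas CD4 was at 2.42 and CD7 at 2.15. Of 5 myeloid markers, at most 1 was above the floor in any library, and their sum was between 0.0433 and 0.155 FPKM. Of 5 NK-cell markers, 1 to 3 were above the floor, with a sum between 0.111 and 0.467 FPKM. Of B-cell markers, CD79A was above the floor in every library, CD79B had 4 counts in DMSO and in DMSO + PHA and 0 in both JQ1 libraries, and MS4A1 and PAX5 were above the floor in none. CD79A was lower with JQ1, as given with the counterparts of the members below. Its part in the results was not tested.

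CD3D, CD3E and CD3G lie together on chromosome 11 (GRCh38 throughout). CD3D (ENSG00000167286, chr11:118338954-118342744, minus strand) and CD3G (ENSG00000160654, chr11:118344344-118355161, plus strand) point away from each other, with the starts of their canonical transcripts 1639 bp apart. CD3E (ENSG00000198851, chr11:118304545-118316175, plus strand) starts 37975 bp from CD3D. The other members lie on 5 other chromosomes: CD247 (ENSG00000198821, chr1:167430640-167518610, minus), LCK (ENSG00000182866, chr1:32251239-32286165, plus), ZAP70 (ENSG00000115085, chr2:97713560-97739862, plus), LAT (ENSG00000213658, chr16:28984826-28990783, plus), LCP2 (ENSG00000043462, chr5:170246237-170298227, minus) and GRAP2 (ENSG00000100351, chr22:39901082-39973721, plus).

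Promoter windows in RefSeq (GRCh38.p14) were matched for 7 of the 9 members, with 12 windows in all, and CD3E and CD3G were the others. The bases before the start site are given for CD3D, as the window between 2 CD3 genes, and for LCK and GRAP2, which had the lowest ratios with JQ1. The GRAP2 window given is the 1 of its 2 windows that holds the AP-1 letters. LAT was added for the 1 of its 2 windows that also holds them. The other GRAP2 window and the other LAT window do not hold these letters. Each stretch given reads 5′ to 3′ on the gene's own strand. It stops before the first base that is an exon of that gene in GENCODE release 44 or that extends its locus in the files. Capitals mark matches to the letters searched for on both strands, namely CCGGAA from the ETS motif, TGTGGT from that of RUNX factors, AGATAA from that of GATA factors, the E-box CANNTG and its form CAGCTG (counted in both), TGANTCA from the AP-1 motif, and TATAAA from the TATA box.
CD3D, chr11:118342745-118342955, minus strand: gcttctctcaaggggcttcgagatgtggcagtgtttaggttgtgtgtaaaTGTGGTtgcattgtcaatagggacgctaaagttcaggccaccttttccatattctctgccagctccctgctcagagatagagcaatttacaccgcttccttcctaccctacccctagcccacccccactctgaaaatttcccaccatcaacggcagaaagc
LCK, chr1:32251015-32251238, plus strand: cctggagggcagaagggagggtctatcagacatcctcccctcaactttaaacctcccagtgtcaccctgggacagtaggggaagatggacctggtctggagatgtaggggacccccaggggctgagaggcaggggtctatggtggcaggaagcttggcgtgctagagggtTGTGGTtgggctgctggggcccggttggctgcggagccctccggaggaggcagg
GRAP2, chr22:39946567-39946816, plus strand, before a start 45733 bp from that of the canonical transcript: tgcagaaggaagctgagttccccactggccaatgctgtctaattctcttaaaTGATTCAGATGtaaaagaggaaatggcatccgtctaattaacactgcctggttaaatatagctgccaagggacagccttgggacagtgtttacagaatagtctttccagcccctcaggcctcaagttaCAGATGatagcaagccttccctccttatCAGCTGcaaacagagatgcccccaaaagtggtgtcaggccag
LAT, chr16:28984553-28984802, plus strand, before a start 249 bp from that of the canonical transcript: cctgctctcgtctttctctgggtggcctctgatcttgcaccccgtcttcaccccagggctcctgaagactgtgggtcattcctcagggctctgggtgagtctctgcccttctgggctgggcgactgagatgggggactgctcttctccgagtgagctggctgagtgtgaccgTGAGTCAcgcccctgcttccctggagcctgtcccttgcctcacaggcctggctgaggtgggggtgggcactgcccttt

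In the 250 bases before the start, TGTGGT was found for CD3D, 200 bases before it, and for the LCK start shown, 80 bases before it. It was thus in 2 of 12 member windows and in 11% of all 35116 windows of the same length. TGANTCA was also in 2 member windows, at 198 bases before the GRAP2 start shown and at 78 bases before the LAT start shown, and in 6.57% of all windows. CANNTG was in 7 member windows (61.8% of all windows). Its form CAGCTG was in 4 (14% of all), and the ETS letters were in 1, a ZAP70 window (14.5% of all). AGATAA was in no member window, against 9.17% of all windows, and TATAAA also in none, against 10.7%. None of the letters was in the LCP2 window. A match is a stretch of letters and not evidence of a bound factor, and the absence of one says only that these letters are not in that window.

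All 9 members were expressed in every library, and all 9 passed the filter of a mean of at least 1 FPKM that left 11503 genes. Together they took 0.173% of all counts in DMSO, 0.0781% in JQ1, 0.202% in DMSO + PHA and 0.0837% in JQ1 + PHA. Their summed level was 321 FPKM in DMSO and 353 in DMSO + PHA, against 159 in JQ1 and 178 in JQ1 + PHA. Both JQ1 libraries were therefore below both libraries without it. In a bulk library, a lower share of cells that express a gene and less RNA of it per cell cannot be told apart.

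**Figure D1:**
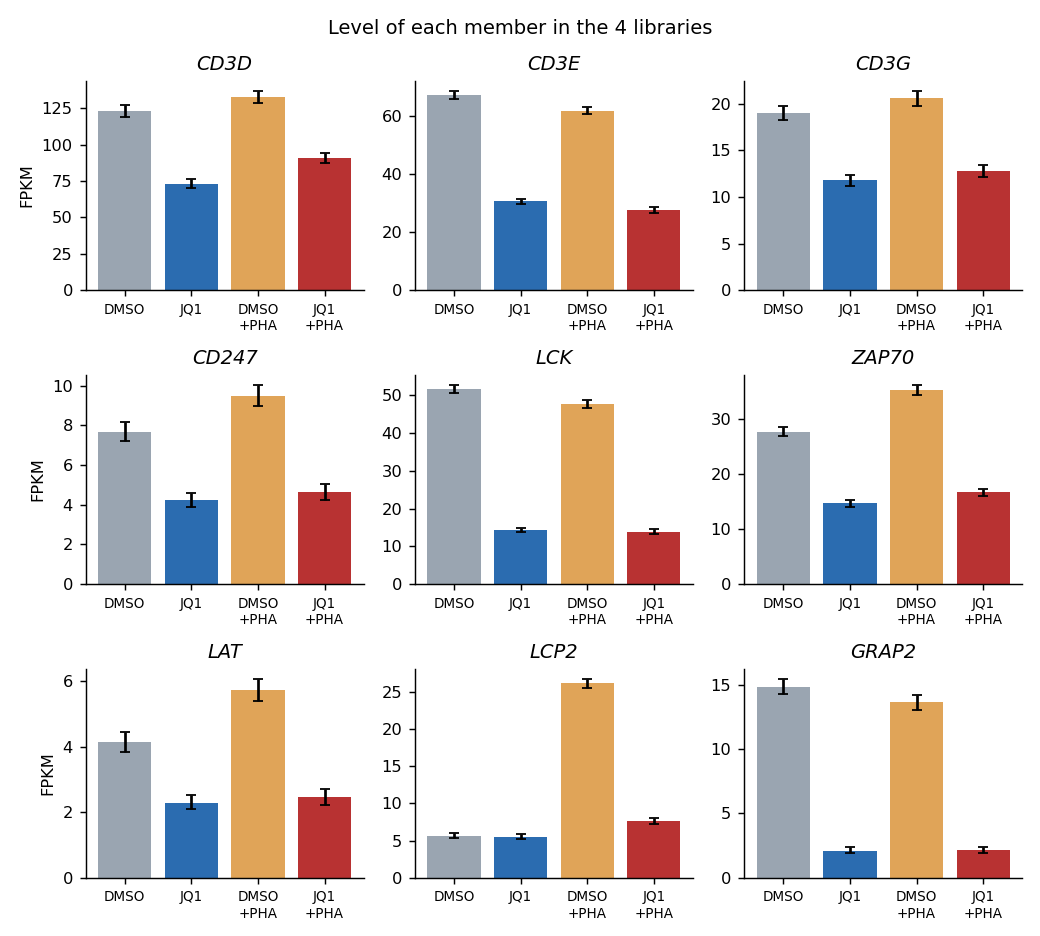
Level of each of the 9 members in the 4 libraries (1 per condition). Each panel is 1 gene, the bar height is FPKM from 0 on a linear axis of its own, and the error bars are 95% exact Poisson intervals of the count. GRAP2 and LCK are low in both JQ1 libraries, and LCP2 is at 26.1 FPKM in DMSO + PHA against 5.53 to 7.63 in the others.

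The CD3 chains were lower in both JQ1 libraries. The δ chain gene CD3D was at 123 FPKM in DMSO and 133 in DMSO + PHA, and at 73.2 in JQ1 and 90.6 in JQ1 + PHA. Its share of the counts was 1.68-fold lower with JQ1 alone, a log2 ratio of -0.75 (interval -0.82 to -0.67), and 1.47-fold lower with JQ1 under PHA (log2 ratio -0.55, interval -0.62 to -0.48). The ε chain gene CD3E, whose product pairs with both other chains, was at 67.3 FPKM in DMSO, 62.0 in DMSO + PHA, 30.7 in JQ1 and 27.7 in JQ1 + PHA. CD3E thus had the lowest JQ1 ratio of the chromosome 11 genes, 2.20-fold lower without PHA (log2 -1.13, interval -1.19 to -1.08) and 2.24-fold lower with it (log2 -1.16, interval -1.22 to -1.11). The γ chain gene CD3G was at 19.0 FPKM in DMSO, 20.6 in DMSO + PHA, 11.8 in JQ1 and 12.8 in JQ1 + PHA. Its ratio was alike with and without PHA, 1.61-fold lower in both (log2 -0.69; intervals -0.78 to -0.59 without PHA and -0.78 to -0.60 with it).

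The neighbours CD3D and CD3G, whose starts face away from each other, had overlapping JQ1 intervals without PHA, whereas CD3E, farther off in the same cluster, lay outside both. With PHA the CD3D interval overlapped that of CD3G only at its edge. CD247, which lies on chromosome 1 and encodes the ζ chain, was at 7.69 FPKM in DMSO, 9.51 in DMSO + PHA, 4.23 in JQ1 and 4.63 in JQ1 + PHA. It was 1.82-fold lower with JQ1 (log2 -0.86, interval -1.02 to -0.71) and 2.05-fold lower with JQ1 under PHA (log2 -1.04, interval -1.18 to -0.89). CD247 was thus the lowest of the 4 chains in FPKM in every library, and its JQ1 ratio lay between those of CD3G and CD3E.

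Of the kinases, LCK was much lower with JQ1 and ZAP70 less so. LCK, the Src-family kinase that starts the cascade, was at 51.7 FPKM in DMSO and 47.7 in DMSO + PHA, and at 14.4 in JQ1 and 13.9 in JQ1 + PHA. Its share of counts was 3.60-fold lower without PHA (log2 -1.85, interval -1.91 to -1.78) and 3.43-fold lower with PHA (log2 -1.78, interval -1.85 to -1.71). The JQ1 libraries were close to each other and far below the others, and 2.03% of the 11503 genes had an FPKM ratio as low as that of LCK or lower without PHA, and 2.20% with PHA. ZAP70, the Syk-family kinase that docks on the phosphorylated chains, was at 27.6 FPKM in DMSO, 35.2 in DMSO + PHA, 14.6 in JQ1 and 16.7 in JQ1 + PHA. It was 1.89-fold lower with JQ1 (log2 -0.92, interval -0.99 to -0.85) and 2.11-fold lower with JQ1 under PHA (log2 -1.08, interval -1.15 to -1.01). By FPKM the order of the kinases differed between the libraries: LCK was above ZAP70 in both libraries without JQ1, their intervals overlapped in JQ1, and ZAP70 was above LCK in JQ1 + PHA. On the canonical transcript length, an alternative described with the levels, LCK stayed above ZAP70 in JQ1 and their intervals overlapped in JQ1 + PHA.

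The adaptors differed most among themselves. GRAP2, which holds LCP2 at LAT, was at 14.9 FPKM in DMSO and 13.7 in DMSO + PHA, and at 2.12 in JQ1 and 2.13 in JQ1 + PHA, from 2243, 2156, 334 and 318 counts. This was the largest JQ1 difference of the 9 members, 7.02-fold lower without PHA (log2 -2.81, interval -2.98 to -2.65) and 6.41-fold lower with it (log2 -2.68, interval -2.86 to -2.51). Only 75 of the 11503 genes had an FPKM ratio as low as that of GRAP2 or lower without PHA, and 105 with PHA, these counts including GRAP2 itself. LAT, the membrane scaffold, was at 4.14 FPKM in DMSO, 5.72 in DMSO + PHA, 2.29 in JQ1 and 2.46 in JQ1 + PHA. It was 1.81-fold lower with JQ1 (log2 -0.85, interval -1.03 to -0.68) and 2.33-fold lower with JQ1 under PHA (log2 -1.22, interval -1.38 to -1.06). A lncRNA on the same strand within the LAT locus, RP11-264B17.3, had 134, 123, 119 and 84 counts in DMSO, JQ1, DMSO + PHA and JQ1 + PHA, against 751, 435, 1086 and 441 for LAT, and how the counting treated reads shared by overlapping genes is not given in the sources used here.

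LCP2, the cytosolic scaffold that LAT recruits, was the member set apart by PHA. It was at 5.64 FPKM in DMSO, 5.53 in JQ1, 26.1 in DMSO + PHA and 7.63 in JQ1 + PHA, from 1273, 1305, 6174 and 1705 counts. The DMSO + PHA library stood far above the other 3, which lay close together in level. Without PHA the JQ1 interval of LCP2 held 0 (log2 -0.03, interval -0.14 to 0.08), and with PHA it was 3.43-fold lower with JQ1 (log2 -1.78, interval -1.85 to -1.70). The ratio without PHA was the only one of the 36 member ratios to change sign with the scaling: it was 0.02 when the counts were scaled by the DESeq2 size factors. Within the JQ1 libraries, LCP2 was also higher with PHA, with JQ1 + PHA 1.38-fold above JQ1 (log2 0.47, interval 0.36 to 0.57).

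Counted over the members, 3 of 9 (CD3E, LCK and GRAP2) were at least 2-fold lower with JQ1 than with DMSO, on FPKM with a pseudocount of 0.1, against 8.65% of all 11503 genes. None was at least 2-fold higher, against 5.22% of all genes. The median log2 FPKM ratio of the members was -0.85 and all 9 were below 0, against a median of -0.01 and 50.8% below 0 over all genes. With PHA in both arms, 7 of 9 were at least 2-fold lower with JQ1, all but CD3D and CD3G, against 8% of all genes, and none was 2-fold higher, against 3.69%. The median of the members was -1.16, against -0.02 over all genes. The members just short of the 2-fold rule without PHA were ZAP70 (log2 FPKM ratio -0.91), CD247 (-0.85) and LAT (-0.83), and those just past it with PHA were CD247 (-1.02) and ZAP70 (-1.08). LAT was at -1.19 with PHA. The counts of 3 and 7 thus differ through small shifts in CD247 and ZAP70, a larger one in LAT and the largest in LCP2. The count of 7 was 6 under TMM or DESeq2 factors, where CD247 was short of 2-fold (-0.97), and 5 with a pseudocount of 1, where CD247 (-0.90) and LAT (-0.96) were.

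**Figure D2:**
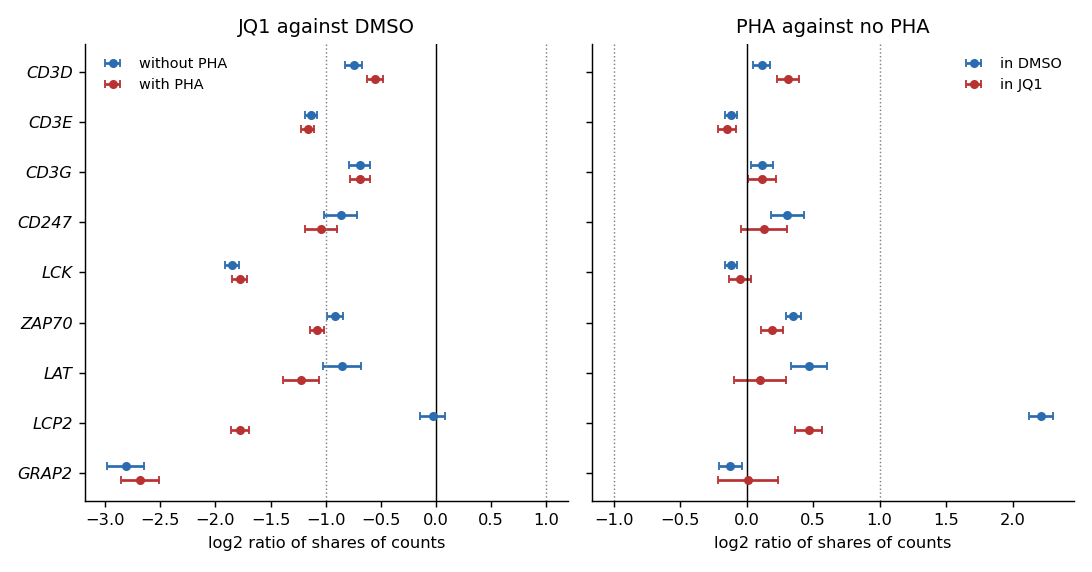
Log2 ratio of the share of counts of each member in the 4 comparisons, with 95% exact intervals that cover counting error only. The dotted lines mark 2-fold. The JQ1 intervals, other than that of LCP2 without PHA, lie wholly below 0, and LCP2 is the 1 member past 2-fold with PHA.

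With PHA alone, LCP2 was far higher and the other members differed little. LCP2 was 4.64-fold higher in DMSO + PHA than in DMSO (log2 2.21, interval 2.13 to 2.30), and it was the 1 member of 9 at least 2-fold higher, against 2.1% of all genes. None was 2-fold lower, against 1.19%, and the median of the members was 0.12, against -0.01 over all genes. LAT was 1.38-fold higher (log2 0.47, interval 0.33 to 0.60), ZAP70 1.28-fold higher (log2 0.35, interval 0.30 to 0.41) and CD247 1.24-fold higher (log2 0.31, interval 0.18 to 0.43). CD3D and CD3G were 1.08-fold higher, and CD3E, LCK and GRAP2 were each slightly lower, with log2 ratios of -0.12. In the presence of JQ1, no member was 2-fold higher or lower with PHA, against 1.04% and 1.03% of all genes, and the median was 0.11, against -0.00. There LCP2 and CD3D were highest, CD3D at 1.24-fold (log2 0.31, interval 0.23 to 0.39), and the intervals of CD247, LCK, LAT and GRAP2 held 0.

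The JQ1 ratio with PHA minus that without PHA, both on the log2 scale of count shares, was furthest from 0 for LCP2, at -1.75 (interval -1.88 to -1.61). It was below 0 also for LAT (-0.37, interval -0.60 to -0.13) and ZAP70 (-0.16, interval -0.26 to -0.06), and above 0 for CD3D (0.20, interval 0.09 to 0.30). The intervals of CD3E, CD3G, CD247, LCK and GRAP2 held 0, and for GRAP2 the interval ran from -0.11 to 0.37. The comparisons share libraries: DMSO is the base of JQ1 and of PHA, and DMSO + PHA enters both the PHA comparison and the JQ1 comparison under PHA, so that a high value of LCP2 in that 1 library gives both its high PHA ratio and its low JQ1 ratio. These differences come from 1 library for each condition, and how far they would vary between cultures was not tested.

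**Figure D3:**
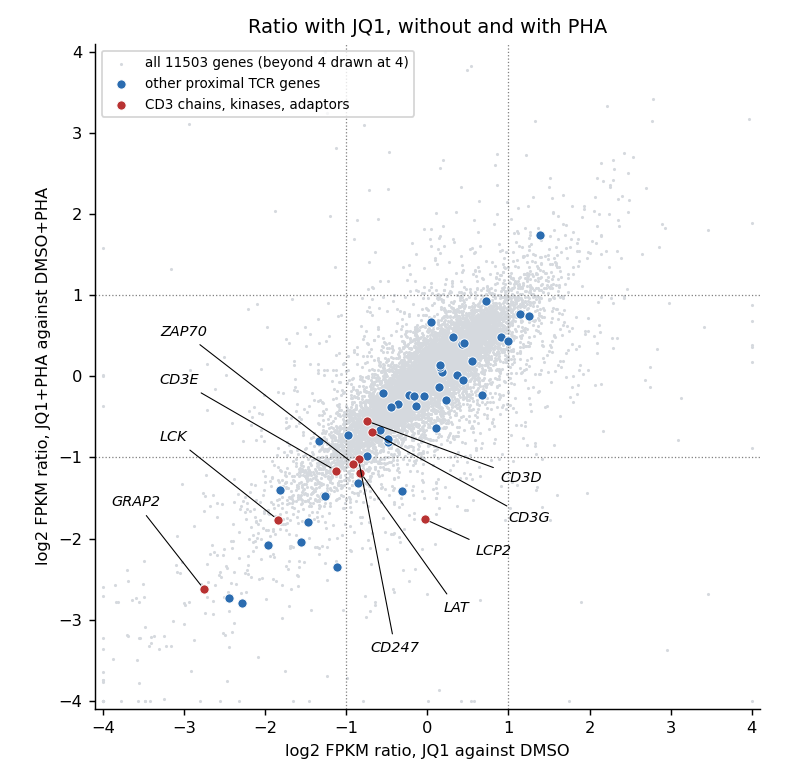
Log2 FPKM ratio of JQ1 to DMSO (x axis) against that of JQ1 + PHA to DMSO + PHA (y axis) for the 11503 genes that passed the filter, with the members and the other listed TCR genes marked and dotted lines at 2-fold. All 9 members lie below 0 on both axes. Of all genes, 50.8% lie below 0 on the x axis and 51.5% on the y axis. GRAP2 is the lowest member (-2.76 and -2.63). LCP2 is near 0 on the x axis (-0.03) and at -1.76 on the y axis. The axes use different libraries, and no correlation is given.

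By level, the members ran from 123 FPKM for CD3D to 4.14 for LAT in DMSO, in the order CD3D, CD3E, LCK, ZAP70, CD3G, GRAP2, CD247, LCP2 and LAT by FPKM, and no neighbours in this order had overlapping counting intervals. In JQ1, GRAP2 was the lowest, with an interval overlapping that of LAT, and in JQ1 + PHA the same held. In DMSO + PHA, LCP2 stood in the fifth place, above CD3G, where it was the eighth in DMSO. The order depends on the gene length used. The length implied by the deposited count and FPKM was 2.06 to 5.77 times that of the canonical transcript in GENCODE release 44, and for LAT, at 9645 bases, it was longer than the locus itself (5958 bp). On the canonical length, chosen after the data had been seen, CD3E (339 on the same scale as FPKM) came before CD3D (270.0) in DMSO, and LCP2 was the lowest (16.0). Ratios of 1 gene between libraries are not affected, because its length is the same in each.

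The rest of the proximal pathway was described with a list of 48 genes (coreceptors, costimulatory receptors, kinases, phosphatases, adaptors, exchange factors and ubiquitin ligases), of which 43 passed the filter. With JQ1, 9 of 43 were at least 2-fold lower (8.65% of all genes were) and 3 at least 2-fold higher (5.22%), and the list median was a log2 FPKM ratio of -0.15. With JQ1 under PHA, 10 were lower (8% of all genes) and 1 higher (3.69%), with a median of -0.24. With PHA alone, none was 2-fold lower (1.19% of all genes) and 4 were higher (2.1%), with a median of 0.37. With PHA in the presence of JQ1, none was lower (1.03% of all genes) and 1 higher (1.04%), with a median of 0.06.

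Among the 9 lower with JQ1, those with the largest ratios were DOK2, an adaptor that dampens TCR signalling (2.60 FPKM in DMSO and 0.397 in JQ1, log2 FPKM ratio -2.44), the adhesion receptor CD2 (21.4 and 4.31, -2.29), the phosphatase PTPN22 (5.90 and 1.43, -1.97), the membrane adaptor LAX1 (3.25 and 0.853, -1.81), and the surface receptors CD5 (14.6 and 4.89, -1.56) and CD6 (1.40 and 0.442, -1.47). Named after their values were seen, the 3 that were higher with JQ1 were PAG1, a membrane adaptor that recruits CSK (3.80 and 10.1 FPKM, 1.39), PRKCQ, protein kinase C θ (11.6 and 27.8, 1.25), and SOS2, a Ras exchange factor (5.49 and 12.3, 1.14). With PHA in both arms, CD2 (-2.80), DOK2 (-2.74), SH2D2A (-2.35), PTPN22 (-2.07), CD5 (-2.04) and CD6 (-1.79) were lowest and PAG1 (1.75), named after its value was seen, was the 1 gene higher. With PHA alone the 4 genes past 2-fold were SH2D2A, an adaptor that binds LCK (1.63 FPKM in DMSO and 6.29 in DMSO + PHA, log2 FPKM ratio 1.89), the costimulatory receptor CD28 (6.70 and 19.1, a count share 2.86-fold higher), the phosphatase PTPN6 (4.04 and 8.73, 1.09) and the kinase PTK2B (2.98 and 6.12, 1.01). LAX1 was the 1 gene at least 2-fold higher with PHA in the presence of JQ1 (0.853 and 2.00 FPKM, 1.14).

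The counterparts of the members in other lineages showed which paralogous parts the cells also made. SYK, the kinase that takes the place of ZAP70 in B cells, was at 23.4 FPKM in DMSO, 15.9 in JQ1, 17.8 in DMSO + PHA and 15.4 in JQ1 + PHA, so that by FPKM it was above ZAP70 in JQ1 and below it in the other 3 libraries. FYN, the other Src-family kinase of T cells, was at 5.80 FPKM in DMSO, 11.0 in JQ1, 8.88 in DMSO + PHA and 12.5 in JQ1 + PHA. FYN was thus higher with JQ1, by a log2 count-share ratio of 0.92 without PHA and 0.50 with PHA, where LCK was lower. GRAP, the adaptor taken here as the counterpart of GRAP2, was at 3.45 FPKM in DMSO, 3.92 in JQ1, 4.76 in DMSO + PHA and 4.94 in JQ1 + PHA. By FPKM it exceeded GRAP2 in both JQ1 libraries, an order that, like that of SYK and ZAP70, rests on the deposited gene lengths. How alike GRAP and GRAP2 are was not tested. CD79A, a B-cell receptor chain that is the counterpart of the CD3 chains, was at 7.48 FPKM in DMSO, 6.33 in DMSO + PHA, 1.06 in JQ1 and 1.01 in JQ1 + PHA, which is 7.03-fold lower without PHA and 6.25-fold lower with it. LYN had at most 1 count in any library, BLNK, the counterpart of LCP2, at most 3, LAT2, the counterpart of LAT, between 13 and 49, FCER1G, that of CD247, at most 8, and CD79B, the partner of CD79A, at most 4.

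The chains that the CD3 complex carries differed from one another. TRAC, the TCR α constant segment, was at 16.7 FPKM in DMSO, 8.56 in JQ1, 221 in DMSO + PHA and 50.1 in JQ1 + PHA, so that it was lower with JQ1 by a log2 count-share ratio of -0.97 without PHA and -2.14 with it. TRBC1 was between 330 and 383 FPKM in all 4 libraries. TRBC2 was lower with JQ1, at 172 FPKM in JQ1 and 257 in DMSO (log2 count-share ratio -0.58, interval -0.65 to -0.50). With PHA it was at 206 in JQ1 + PHA and 293 in DMSO + PHA (-0.51, interval -0.57 to -0.44). Reads shared by the near-identical β constant segments TRBC1 and TRBC2 may be split between them.

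The nearest protein-coding genes on each side that passed the filter lay on both sides of 0. UBE4A, 4424 bp beyond CD3G, was higher with JQ1 (26.1 FPKM in DMSO and 40.9 in JQ1, log2 FPKM ratio 0.65; 0.54 with PHA), and HDAC1, 5921 bp beyond LCK, was at 0.26 and 0.30. MPZL3, 52195 bp from CD3E, was lower (1.78 and 0.634 FPKM, -1.36; -1.46 with PHA), as was NPM1 (-1.24 and -1.07), which lies 1088889 bp from LCP2. POU2F1, 3295 bp from CD247, was at 1.19 FPKM in DMSO, 2.67 in JQ1, 2.99 in DMSO + PHA and 1.12 in JQ1 + PHA, higher with JQ1 without PHA and lower with it. The neighbours of ZAP70, ACTR1B and TMEM131, were at 0.24 and 0.22 with JQ1. LCK differed from both its neighbours, with EIF3I at -0.67 and HDAC1 at 0.26. GRAP2 differed from both of its own, RPS19BP1 at -0.40 (368227 bp away) and TNRC6B at 0.60 (71096 bp away). Genes nearer to GRAP2 did not pass the filter. Of these, ENTHD1, 7218 bp away, was at 0 FPKM in every library. FAM83F, 21228 bp away, was at 0.370 FPKM in DMSO and 0.208 in JQ1. With PHA in both arms, EIF3I was at -0.42, RPS19BP1 at -0.14 and TNRC6B at -0.91, the last on the other side of 0.

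**Figure D4:**
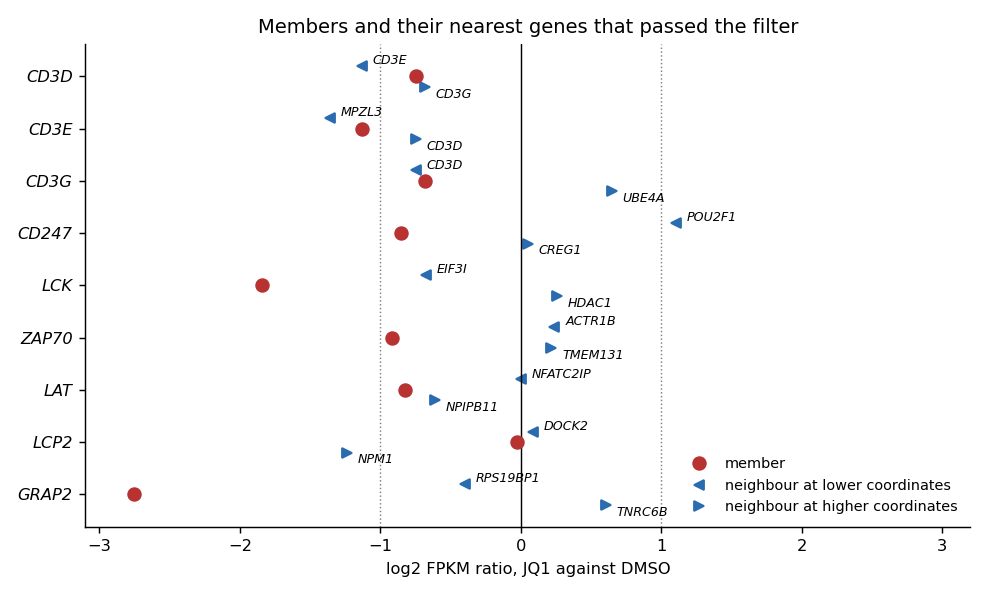
Log2 FPKM ratio of JQ1 to DMSO for each member (circle) and for the nearest protein-coding gene on each side that passed the filter (triangles). The dotted lines mark 2-fold. GRAP2 and LCK lie well to the left of both neighbours, while CD3D, CD3E and CD3G are neighbours of each other.

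Genes outside the members whose pattern over the 4 libraries was nearest, by the Euclidean distance of centred log2 FPKM values with a pseudocount of 0.1, were ZNRF3 (distance 0.025), COG7 (0.029) and SRFBP1 (0.037) for the mean of CD3D, CD3E and CD3G. That mean merges chains that differ, with log2 FPKM ratios of -0.75, -1.13 and -0.68 with JQ1 alone. A short distance to it is therefore not a short distance to each chain. For LCK the nearest genes were COA7 (0.077), UFC1 (0.085) and DIEXF (0.092), and COA7, for example, was at 16.4 FPKM in DMSO, 4.56 in JQ1, 15.6 in DMSO + PHA and 4.19 in JQ1 + PHA. For LCP2 they were PPP1R16B (0.21), PI16 (0.28) and PRKCE (0.33), which lay farther from it than the nearest genes did from LCK or the CD3 mean. PPP1R16B was at 1.95 FPKM in DMSO, 2.10 in JQ1, 8.71 in DMSO + PHA and 3.03 in JQ1 + PHA. With only 4 libraries, many genes can lie near any pattern, and nothing follows from these names about a shared function.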

How the data were processed

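RNA was sequenced from Jurkat cells in 4 conditions with 1 library each. The authors aligned reads with Hisat2 2.0.4 to GRCh38, per the labels and the study's methods, and deposited counts per gene, without normalization, and FPKM. The submitters' processing notes also name TopHat2 2.0.9 and Cufflinks 2.1.1, with no role. The counter, its strand and multi-mapping settings and the annotation release are not given in the sources used here, and the labels and the methods name different VAHTS library kits, of which the methods call theirs stranded. The deposited FPKM are counts divided by a length per gene and the library total, and the lengths exceed those of canonical transcripts. Of 50868 identifiers, 49659 are in GENCODE release 44, used for positions.

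Ratios were computed as log2 of FPKM with a pseudocount of 0.1, for the 11503 genes whose FPKM averaged 1 or more, and a count of those past 2-fold stands in for a test. For single genes, ratios of count shares have 95% exact (Clopper-Pearson) intervals, and levels exact Poisson intervals. Differences between JQ1 ratios have normal intervals from the inverse counts. All cover counting error only. The genes named are the 9 members, list genes past 2-fold (where more than 6 were, the 6 with the largest ratio), counterparts, TCR constant segments, neighbours and the 3 genes nearest in pattern. Those named beyond this rule are said to be. The members and lists were chosen with earlier results of these data known. A result that needs an item withheld for evaluation is not reported here. Promoter windows were taken from RefSeq, and protein sequences were not used here. Alternatives were the pseudocount, the filter, the fold threshold, ratios centred on the median gene, and scaling by TMM (edgeR) or DESeq2 size factors, with the canonical transcript length added after the data had been seen. Only the FPKM ratio, the 2-fold rule and the exact interval of a ratio were first tested on simulated Poisson counts. Scaling factors came from edgeR 4.0.16 and DESeq2 1.42.0 under R 4.3.3, neither of which was used for a test. Everything else was run in Python 3.11.15, with scipy 1.17.1 for intervals, pandas 2.3.3 and numpy 2.4.6 for tables, and matplotlib 3.10.9 for figures.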

Additional observations from a re-analysis of the deposited data

Results flagged for a closer look

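The members, the list genes named above for passing 2-fold and the TCR constant segments were searched for opposite directions. The other list genes were not searched. Outside this search, JQ1 ratios without and with PHA were, for example, 0.67 and -0.23 for PTPRC and 0.24 and -0.29 for VAV3. For 7 of the genes searched, the log2 ratio of count shares lay on opposite sides of 0 in a pair of matched comparisons. The share of all genes with such opposite signs was not computed, so the number has no background beside it. With 1 library per condition, the differences in these 7 genes were not tested. The only member among them was GRAP2, whose PHA ratio was -0.12 without JQ1 (interval -0.21 to -0.04) and 0.01 with JQ1 (interval -0.22 to 0.23), a difference of 0.13 whose interval held 0. The PHA ratio of CD2 was 0.40 without JQ1 (interval 0.27 to 0.53) and -0.12 with JQ1 (interval -0.44 to 0.20), a difference of -0.52. The PHA ratio of PAG1 was -0.36 without JQ1 (interval -0.51 to -0.22) and 0.01 with it (interval -0.08 to 0.09), a difference of 0.37. The PHA ratio of PRKCQ was 0.46 without JQ1 (interval 0.32 to 0.60) and -0.05 with it (interval -0.15 to 0.05), a difference of -0.51. The JQ1 ratio of PTK2B was 0.12 without PHA (interval -0.03 to 0.26) and -0.65 with it (interval -0.77 to -0.54), a difference of -0.77. Among the TCR γ constant segments, the JQ1 ratio of TRGC1 was 1.16 without PHA (interval 0.14 to 2.27). With PHA it was -1.68 (interval -2.23 to -1.15), a difference of -2.84. TRGC1 had 12 counts in DMSO and 28 in JQ1, and it did not pass the filter. The JQ1 ratio of TRGC2 was 0.51 without PHA (interval 0.16 to 0.86) and -1.66 with it (interval -1.88 to -1.45), a difference of -2.17. Reads of these similar segments may be split between them.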

How the results depend on the processing

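No paired analysis was possible because there was 1 library per condition and the labels give no replicate numbers, and for the same reason no replicate could be left out. Across the 36 member ratios, the sign was the same under TMM factors, centring on the median gene and pseudocounts of 0.01 and 1, and for 35 of 36 under DESeq2 size factors, the exception being LCP2 in JQ1 against DMSO (0.02 against -0.03). The largest shift was 0.41, with a pseudocount of 1, and 0.059 under DESeq2 size factors. The number of members lower with JQ1, 3 at 2-fold, was 8 at 1.5-fold and 1 at 4-fold, and under PHA it was 7 at 2-fold and 1 at 4-fold. The 7 under PHA were 5 with a pseudocount of 1 and 6 under TMM or DESeq2 factors. Of the 43 other listed genes, with the filter raised to a mean of 5 FPKM, the number lower was 3 with JQ1 (9 in the main setting) and 5 with JQ1 under PHA (10), and the number higher was 2 with PHA (4) and 0 with PHA in the presence of JQ1 (1). A pseudocount of 1 also gave 2 and 0 for the last pair, and 6 for the number lower with JQ1 (9). The stricter filter leaves fewer genes to count. By level in DMSO, the canonical transcript length, chosen after the data had been seen, moved CD3E to first and CD3D to second. With 1 library per condition, counting intervals are a lower limit on the error, and LAT, GRAP2 in JQ1 and CD247, with the fewest counts, have the widest.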
